A study of Homo sapiens with 6 samples.

Results

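The BCL2 family decides whether the mitochondrial outer membrane stays intact. Its transcripts were followed here through 10 genes, matched by symbol in a table of 60664 genes. They comprised 3 survival genes (BCL2, BCL2L1 and MCL1), 5 BH3-only genes (BCL2L11, BBC3, PMAIP1, BID and BMF) and 2 effector genes (BAX and BAK1). All 10 were found once and passed the filter on low counts, with over 10 counts in each library. RNA came from PC9OR, labelled as lung cancer cells. PC9 is a human lung adenocarcinoma line with an activating EGFR deletion. The control group, NC (genotype given as Control), and the si-GLMP group (genotype given as GLMP knockdown) had 3 libraries each. No drug, dose, culture time or small interfering RNA sequence is given in the sources used here, so each group is known only as the 1 line under 1 label. GLMP encodes a lysosomal membrane glycoprotein, and the series title ties it to resistance against EGFR tyrosine kinase inhibitors.

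In the background biology, BAX and BAK1 form the pores that release cytochrome c. BCL2, BCL-xL (from BCL2L1) and MCL1 hold them in check, and the BH3-only proteins are the stress sensors that bind and block the survival proteins or activate the effectors directly. In EGFR-mutant lung cancer cells, the BH3-only protein BIM (from BCL2L11) is known as the main mediator of death under EGFR inhibitors, because signalling below the receptor otherwise marks it for degradation. Much of this family is controlled at the protein level, which transcript counts do not measure.

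Library totals ran from 19896875 to 22372878 counts. GLMP itself was at 15.5, 16.8 and 15.4 CPM (read counts scaled to a common library size, here with TMM factors) under NC and at 4.01, 2.88 and 3.15 CPM under si-GLMP. Its log2 fold change, si-GLMP over NC throughout, was -2.25 ± 0.14 (SE; edgeR BH-adjusted p = 1.16e-18, where BH stands for the Benjamini-Hochberg method). Epithelial markers were abundant, at summed levels of 6505 to 7112 CPM without TMM scaling over all libraries. The lung lineage markers NKX2-1, NAPSA, SFTPB and SFTPC together stayed between 0.330 and 0.788 CPM, near the floor of 0.134 to 0.151 CPM that 3 counts make per library, so these defining markers were nearly absent. Of 5 leukocyte markers, LYZ and TYROBP were at 0 in every library, and the sum of the list was 0.707 to 1.34 CPM in NC and 0.443 to 1.07 CPM in si-GLMP. The summed 6 fibroblast markers were at 6.03 to 7.49 CPM in NC and 10.6 to 12.4 CPM in si-GLMP, mostly COL1A1. COL3A1 was at 0, and DCN and LUM each had 1 count over all libraries together. The 3 endothelial markers summed to 4.83 to 7.40 CPM in NC and 6.89 to 7.65 CPM in si-GLMP. The part of the fibroblast and endothelial levels in the results was not tested, and in bulk RNA more cells of a type and more RNA per cell cannot be told apart. NC replicate 2 stood apart from its group, with 8.76% of its counts on mitochondrially encoded genes against 6.57% and 6.51% in NC replicates 1 and 3 and 5.19% to 5.51% in si-GLMP.

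The promoters of 3 members are shown. These are PMAIP1, the member with the smallest adjusted p, BAX, the effector that passed the test, and BCL2L11, the gene of BIM. Each run is the 250 bases before the RefSeq start site in GRCh38.p14, 5′ to 3′ on the gene's strand. Capitals mark the core of the cAMP response element in PMAIP1 (TGACGT on either strand), the FOXO motif GTAAACA in BCL2L11 and the E-box CACGTG in BAX.
PMAIP1, chr18:59899746-59899995, + strand: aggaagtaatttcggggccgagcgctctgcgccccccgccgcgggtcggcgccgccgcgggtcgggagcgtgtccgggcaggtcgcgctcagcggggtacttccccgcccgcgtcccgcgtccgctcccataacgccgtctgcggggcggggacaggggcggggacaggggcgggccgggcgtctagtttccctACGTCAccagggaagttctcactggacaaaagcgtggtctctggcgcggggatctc
BCL2L11, chr2:111120664-111120913, + strand: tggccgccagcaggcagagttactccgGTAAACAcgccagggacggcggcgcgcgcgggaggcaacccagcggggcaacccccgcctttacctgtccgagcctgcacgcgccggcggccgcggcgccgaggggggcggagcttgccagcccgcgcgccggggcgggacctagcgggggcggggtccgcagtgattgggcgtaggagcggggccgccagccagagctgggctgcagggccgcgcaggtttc
BAX, chr19:48954625-48954874, + strand: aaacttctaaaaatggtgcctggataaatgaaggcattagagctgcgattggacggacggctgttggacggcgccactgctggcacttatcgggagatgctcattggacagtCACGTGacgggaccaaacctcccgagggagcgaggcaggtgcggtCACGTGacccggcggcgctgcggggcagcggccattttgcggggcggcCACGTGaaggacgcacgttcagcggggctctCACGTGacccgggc
RefSeq windows of 300 bases (250 before to 50 after a start site) were found for 9 of the 10 members, 15 windows in all. The motifs were chosen with these sequences in view and were searched on both strands. The core TGACGT was found in PMAIP1 alone among the 9, and in 7.98% of all 35116 windows of the same length. GTAAACA was found in BCL2L11 alone among them, and in 3.42% of all windows. CACGTG was found in BAX, BBC3 and BID, and in 7.26% of all windows. These shares are per window, and a member with several windows, such as BID with 5, had more chances of a match. BAX carried it 4 times, where 5 windows of the 35116 held 4 or more matches. The full element TGACGTCA, which contains the core (1.85% of all windows), and the amino acid response motif TGATGNAA (3.62%) were found in no member. The NF-kB motif, given by name, matched in BMF (5.91% of all windows). A match only says that these letters lie in the window.

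Of the 10 members, 3 rose after GLMP knockdown at a BH-adjusted p under 0.05 (edgeR quasi-likelihood test, Benjamini-Hochberg adjustment over 15900 tested genes), where 12.0% of all tested genes did. PMAIP1, BID and BAX were those 3, by 66.1%, 29.3% and 20.0%. BCL2 was the 1 member that was lower. It fell by 34.6%, where 11.3% of all tested genes were lower. Together 4 of 10 members passed, where 23.3% of all tested genes passed in either direction. The other 6 did not pass, and BCL2L11 was among them. The median log2 fold change was 0.19 over the 10 members and 0.00 over all tested genes. The CPM of the groups did not overlap for 5 members (BCL2, BCL2L11, PMAIP1, BID and BAX), where 36.5% of all tested genes showed no overlap. The labels do not say whether the libraries came from separate cultures, so the p-values cover only the spread among these 6 libraries, possibly technical.

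**Figure D1:**
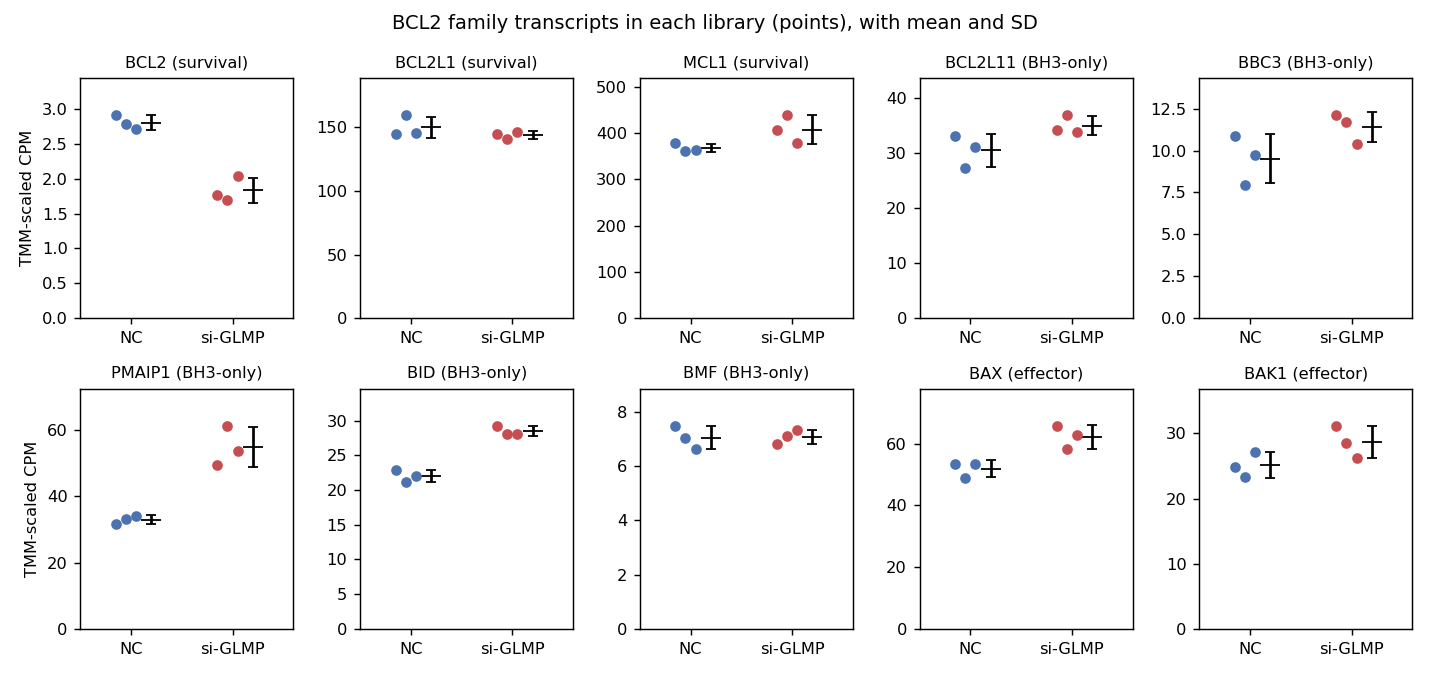
TMM-scaled CPM of each BCL2 family member (vertical axis from 0) in the 3 NC and 3 si-GLMP libraries (points), with the mean and SD of each group as a bar beside them. The si-GLMP points lie above all NC points for PMAIP1, BID, BAX and BCL2L11, and below them for BCL2.

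Per exonic length, MCL1 and BCL2L1 were the most abundant members. Levels of different genes are compared as TMM-scaled CPM per kilobase of merged exons (GENCODE release 29), which lowers the value of a gene whose long alternative exons go unused. In NC the order was MCL1 at 84.2 ± 2.15 CPM per kb (SD, n = 3 here and below), BCL2L1 at 45.3 ± 2.51, BAX at 20.1 ± 1.06, PMAIP1 at 14.8 ± 0.559 and BAK1 at 11.4 ± 0.900 CPM per kb. Lower came BID at 4.95 ± 0.198, BCL2L11 at 4.57 ± 0.444, BBC3 at 2.99 ± 0.464, BMF at 1.29 ± 0.0798 and BCL2 at 0.238 ± 0.00878 CPM per kb. BID and BCL2L11 were the only neighbours in this order whose library ranges overlapped. In si-GLMP, PMAIP1 at 24.5 ± 2.71 and BAX at 24.1 ± 1.502 CPM per kb overlapped in range and took the 3rd and 4th places, and BID and BCL2L11 no longer overlapped. The other places were the same.

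**Figure D2:**
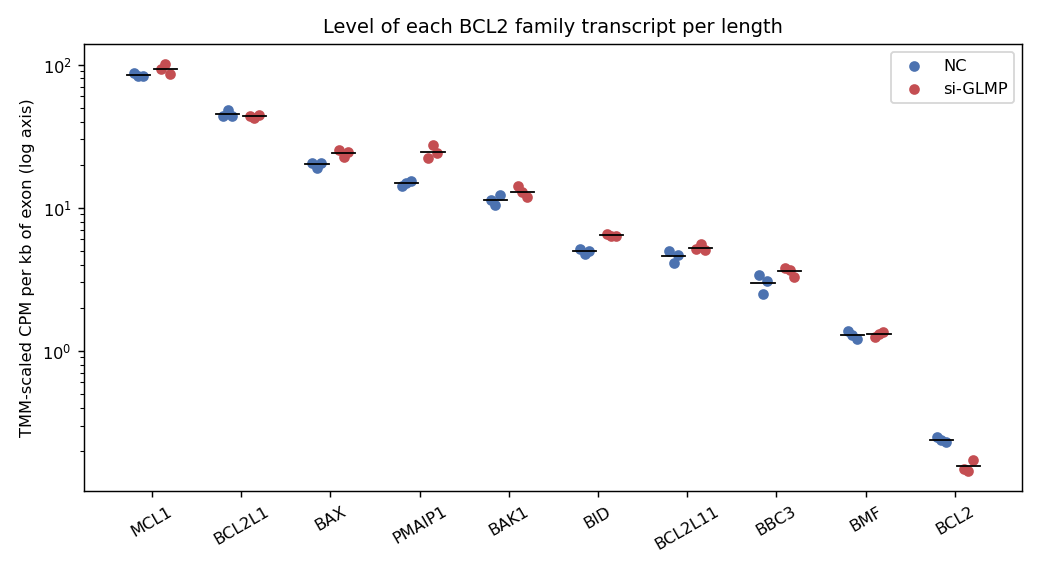
TMM-scaled CPM per kb of exon (log axis) for each member in each library (NC and si-GLMP points) with group means as lines, ordered by the NC mean. MCL1 is at the top at 84.2 CPM per kb in NC, BCL2 at the bottom at 0.238, and PMAIP1 reaches the level of BAX in si-GLMP.

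Summed per kilobase, the 3 survival genes made up 68.4 ± 1.32% of the 10 members' level in NC and 63.7 ± 0.544% in si-GLMP. Their sum itself was 129.8 ± 2.165 CPM per kb in NC and 136.9 ± 6.160 in si-GLMP, so the lower share stood beside a level that was not lower. The BH3-only genes made up 15.1 ± 0.420% and 19.1 ± 0.933%, with 14.6% to 15.4% over the NC libraries and 18.1% to 19.9% over the si-GLMP libraries. The effectors took 16.5 ± 0.903% and 17.2 ± 1.27%, with overlapping ranges, and summed to 31.4 ± 1.86 and 37.0 ± 2.21 CPM per kb. These shares are descriptions over members chosen with results known, and no test was made on them. The BH3-only sum was 28.57 ± 0.9750 CPM per kb in NC and 41.06 ± 2.85 in si-GLMP. It held more PMAIP1 than any other gene in both groups, at 14.8 CPM per kb in NC and 24.5 in si-GLMP. PMAIP1 thus made most of the rise in this sum, and the higher BH3-only share is largely that of a single gene.

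Of the survival genes, only BCL2 passed the test, on few counts, and MCL1 and BCL2L1 did not. MCL1 (ENSG00000143384, chromosome 1 of GRCh38, 150574551 to 150579738, minus strand) encodes a short-lived survival protein that sequesters BIM, NOXA and BAK. It was at 379.0, 362.1 and 363.3 CPM in NC and at 406.4, 439.2 and 377.8 CPM in si-GLMP. The si-GLMP libraries spread widely, and the lowest of them lay just under the highest NC library. The log2 fold change was 0.15 ± 0.06 (edgeR BH-adjusted p = 0.0910; unadjusted 95% interval 0.02 to 0.28). MCL1 passed without si-GLMP replicate 3 (0.21; edgeR BH-adjusted p = 0.0454) and after a correction for GC content and exonic length, a step chosen once the values were known (0.17; edgeR BH-adjusted p = 0.0139). Without si-GLMP replicate 2, its highest library, it was at 0.09 (edgeR BH-adjusted p = 0.310).

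BCL2L1 (ENSG00000171552, chromosome 20, 31664452 to 31723989, minus strand) encodes BCL-xL, a stable survival protein of epithelial cells. Its CPM were 145.1, 159.7 and 145.6 in NC and 144.6, 140.9 and 146.5 in si-GLMP. The groups overlapped, with NC replicate 2 highest, and the log2 fold change was -0.06 ± 0.07 (edgeR BH-adjusted p = 0.573; interval -0.19 to 0.07), moving to -0.01 without NC replicate 2 and to -0.11 after the GC and length correction. In the annotation 43.0% of its exonic length is shared with the antisense gene ABALON, which held 0 to 3 counts per library, and the strand setting of the counting is not given in the sources used here.

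BCL2 (ENSG00000171791, chromosome 18, 63123346 to 63320128, minus strand), the founding survival gene of the family, was the lowest member. Its counts were 58, 57 and 61 under NC and 36, 36 and 42 under si-GLMP. On the CPM scale these were 2.91, 2.79 and 2.71 in NC and 1.76, 1.70 and 2.04 in si-GLMP, with every si-GLMP library under every NC library. The log2 fold change was -0.61 ± 0.22 (edgeR BH-adjusted p = 0.0398; interval -1.06 to -0.16). Over the 3 libraries of a group the counts summed to 176 in NC (exact Poisson 95% interval 151 to 204, counting error only) and to 114 in si-GLMP (94 to 137). The call was lost in all 6 fits that left out 1 library, where the edgeR BH-adjusted p was 0.115, 0.0766 and 0.0786 on dropping NC replicates 1 to 3 and 0.0958, 0.103 and 0.0579 on dropping si-GLMP replicates 1 to 3. It was also lost with no filter on low counts (edgeR BH-adjusted p = 0.0888), with DESeq2 (adjusted p = 0.0831) and after the GC and length correction (edgeR BH-adjusted p = 0.0608), while the log2 fold change stayed between -0.69 and -0.54 over all alternatives.

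Among the BH3-only genes, PMAIP1 had the largest log2 fold change and BMF the smallest. PMAIP1 (ENSG00000141682, chromosome 18, 59899948 to 59904306, plus strand) encodes NOXA, a BH3-only protein that binds MCL1 and promotes its degradation. It had 631, 677 and 770 counts in NC and 1010, 1301 and 1110 counts in si-GLMP. Its CPM were 31.7, 33.1 and 34.2 in NC and 49.4, 61.4 and 53.8 in si-GLMP, a wide gap between the groups. The log2 fold change was 0.73 ± 0.08 (edgeR BH-adjusted p = 6.40e-10), at least as large in size as in 94.2% of all tested genes. It kept its call in all 15 alternatives, between 0.65 and 0.80, and did not reach the separate threshold of an absolute log2 fold change over 1. Its promoter above holds the core element that transcription factors of the CREB and ATF families read, and use of this element in these cells was not tested.

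BID (ENSG00000015475, chromosome 22, 17734138 to 17774770, minus strand) links death receptors to mitochondria, since caspase-8 cleaves its protein into the active form. It was at 22.9, 21.1 and 22.0 CPM in NC and at 29.3, 28.0 and 28.1 CPM in si-GLMP. Both groups were tight and separate, and the log2 fold change was 0.37 ± 0.09 (edgeR BH-adjusted p = 0.00165). BID also kept its call in all 15 alternatives, between 0.34 and 0.40.

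BCL2L11 (ENSG00000153094, chromosome 2, 111119378 to 111168447, plus strand) encodes BIM, a BH3-only protein that engages all survival proteins of the family. Its counts were 657, 556 and 702 in NC and 698, 782 and 696 in si-GLMP. On the CPM scale the values were 33.0, 27.2 and 31.2 in NC and 34.1, 36.9 and 33.7 in si-GLMP, so the groups did not overlap but came close. The log2 fold change was 0.20 ± 0.09 and did not pass the threshold (edgeR BH-adjusted p = 0.100; interval 0.02 to 0.37). NC replicate 2, the library with the high mitochondrial share, was the lowest, and without it the log2 fold change was 0.12 (edgeR BH-adjusted p = 0.397). BCL2L11 passed after the GC and length correction (0.25; edgeR BH-adjusted p = 0.0163). The annotation places 10.9% of its exonic length, 727 bases, under exons of the noncoding gene MIR4435-2HG on the opposite strand. MIR4435-2HG had 742 to 1024 counts in NC and 684 to 779 in si-GLMP, with a log2 fold change of -0.22 (edgeR BH-adjusted p = 0.0578), and its part in the BCL2L11 value was not tested.

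BBC3 (ENSG00000105327, chromosome 19, 47220822 to 47232766, minus strand) encodes PUMA, a BH3-only protein induced by FOXO factors. It was at 10.8, 7.93 and 9.76 CPM in NC and at 12.1, 11.7 and 10.4 CPM in si-GLMP. The groups overlapped, and NC replicate 2 was again the lowest library. The log2 fold change was 0.26 ± 0.13 (edgeR BH-adjusted p = 0.136; interval 0.01 to 0.52), and 0.15 without NC replicate 2 (edgeR BH-adjusted p = 0.493).

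BMF (ENSG00000104081, chromosome 15, 40087890 to 40108892, minus strand) encodes a BH3-only protein held on the actin-myosin cytoskeleton until it is released by stress or loss of attachment. It was at 7.48, 7.05 and 6.61 CPM in NC and at 6.79, 7.12 and 7.32 CPM in si-GLMP. The groups lay on top of each other, with a log2 fold change of 0.01 ± 0.14 (edgeR BH-adjusted p = 0.981). The interval, -0.28 to 0.29, leaves room for a change of that size in either direction.

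Of the effectors, BAX passed the test and BAK1 did not. BAX (ENSG00000087088, chromosome 19, 48954815 to 48961798, plus strand) encodes the pore former that moves from the cytosol to mitochondria. Its CPM were 53.5, 48.7 and 53.5 in NC and 65.8, 58.1 and 62.9 in si-GLMP. Every si-GLMP library lay above every NC library, and the log2 fold change was 0.26 ± 0.08 (edgeR BH-adjusted p = 0.00835). The lowest value was that of NC replicate 2, and without that library the call was lost (0.22; edgeR BH-adjusted p = 0.0527).

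BAK1 (ENSG00000030110, chromosome 6, 33572547 to 33580293, minus strand) encodes the pore former that resides on mitochondria. It was at 24.9, 23.2 and 27.2 CPM in NC and at 31.2, 28.5 and 26.2 CPM in si-GLMP. NC replicate 3 lay above si-GLMP replicate 3, and the log2 fold change was 0.19 ± 0.09 (edgeR BH-adjusted p = 0.141; interval 0.00 to 0.38). It was 0.12 without si-GLMP replicate 1 (edgeR BH-adjusted p = 0.424) and 0.11 after the GC and length correction (edgeR BH-adjusted p = 0.338). Without NC replicate 2, its lowest library, it was 0.14 (edgeR BH-adjusted p = 0.379). BAX and BAK1 thus fell on different sides of the threshold, but the reads of BAX per 100 reads of BAK1 were 215, 210 and 197 in NC and 211, 204 and 240 in si-GLMP, with overlapping groups (log2 change 0.07, exact permutation p = 0.50, two-sided).

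**Figure D3:**
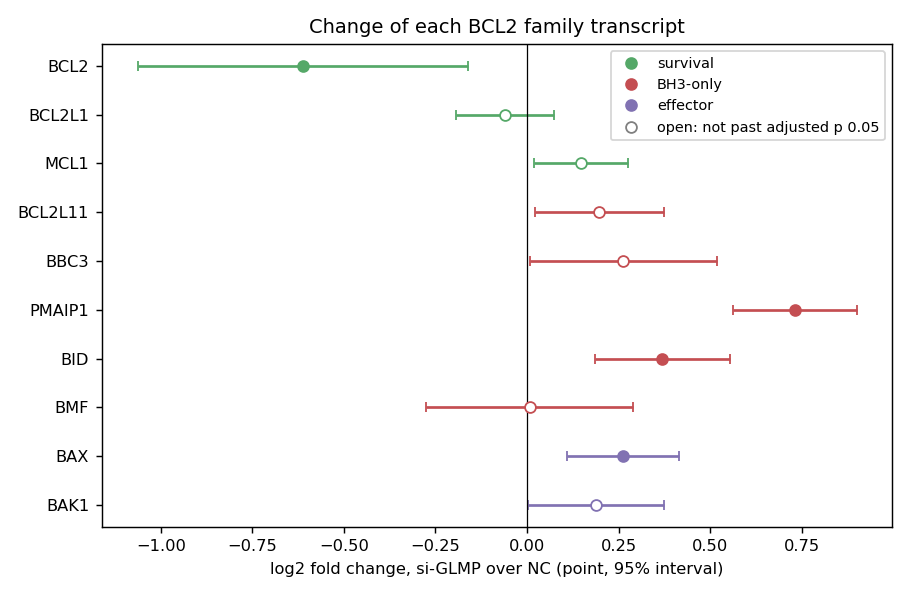
Log2 fold change of each member, si-GLMP over NC (horizontal axis; points), with its unadjusted 95% interval, coloured by role. Filled points, PMAIP1 at 0.73, BID at 0.37, BAX at 0.26 and BCL2 at -0.61, passed an edgeR BH-adjusted p of 0.05, and open points did not.

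Ratios of reads within a library do not depend on how libraries are scaled. These 5 ratios, the one above included, were chosen after the values were seen, and with 3 libraries against 3 the smallest two-sided p of an exact permutation test is 0.10. PMAIP1 gave 8.36, 9.15 and 9.41 reads per 100 MCL1 reads in NC and 12.1, 14.0 and 14.2 in si-GLMP, a log2 change of 0.58 (exact permutation p = 0.10, adjusted over the 5 ratios 0.17). The NOXA transcript was therefore higher against that of its binding partner in every si-GLMP library. BCL2L11 gave 8.70, 7.51 and 8.57 reads per 100 MCL1 reads in NC and 8.39, 8.40 and 8.92 in si-GLMP, with overlapping groups (log2 change 0.06, exact permutation p = 0.60, adjusted 0.60). Against BCL2L1, BCL2L11 gave 22.7, 17.0 and 21.4 reads per 100 in NC and 23.6, 26.2 and 23.0 in si-GLMP (log2 change 0.26, exact permutation p = 0.10, adjusted 0.17). BAX gave 36.9, 30.5 and 36.7 reads per 100 BCL2L1 reads in NC and 45.5, 41.2 and 43.0 in si-GLMP (log2 change 0.32, exact permutation p = 0.10, adjusted 0.17). NC replicate 2 was the lowest library in both ratios to BCL2L1.

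The wider death machinery was read through 6 lists. Of 13 other BCL2 family genes, 10 could be tested and 3 rose, with a median log2 fold change of 0.01, where 12.0% of all tested genes were higher. Without si-GLMP replicate 3, 1 of them passed. BIK, a BH3-only protein of the endoplasmic reticulum, rose from 2.19 ± 0.123 to 3.55 ± 0.595 CPM (SD, n = 3 a group; log2 change 0.69 ± 0.21, edgeR BH-adjusted p = 0.0107). It had only 41 to 87 counts per library, and it no longer passed without si-GLMP replicate 3 (0.56; edgeR BH-adjusted p = 0.0973). BCL2L13, a mitochondrial outer membrane protein, rose by 0.24 ± 0.07 (edgeR BH-adjusted p = 0.00803). BNIP3, a hypoxia-induced mitophagy receptor, rose by 0.20 (edgeR BH-adjusted p = 0.0294), and lost its call without NC replicate 1 (0.0630), NC replicate 3 (0.209) or si-GLMP replicate 3 (0.176). BCL2L15 had -0.84 (edgeR BH-adjusted p = 0.123), with 6 to 27 counts per library. BCL2A1, BCL2L10 and BCL2L14 had at most 6 counts summed over a group and were not tested.

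Downstream of the pore, 13 genes were tested. CASP9, the initiator caspase of the apoptosome, was higher at 0.49 ± 0.17 (edgeR BH-adjusted p = 0.0236), and 2 genes were lower, with a list median of 0.07. These 3 of 13 are close to the 23.3% of all tested genes called in either direction. CASP6, a caspase that acts late in apoptosis, was 1 of the lower genes, at -0.41 ± 0.14 (edgeR BH-adjusted p = 0.0277). The remaining 10, among them the cytochrome c gene CYCS and the apoptosome scaffold APAF1, did not pass. CASP9 lost its call without NC replicate 1 (edgeR BH-adjusted p = 0.131), si-GLMP replicate 1 (0.0582) or si-GLMP replicate 3 (0.0716) and with DESeq2 (DESeq2 adjusted p = 0.0502), while its log2 fold change stayed between 0.41 and 0.54. CASP6 lost it with no filter on low counts (edgeR BH-adjusted p = 0.0560), and without si-GLMP replicate 1 (0.120), si-GLMP replicate 3 (0.0740), NC replicate 1 (0.118) or NC replicate 2 (0.0517), at -0.48 to -0.33 over all alternatives. These calls were fragile, with 0 of the 13 genes passing without si-GLMP replicate 3, 1 without NC replicate 1 and up to 4 in the other leave-one-out fits.

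Of 6 tested inhibitors of apoptosis, 3 rose and 1 fell, with a median of 0.14, where 12.0% of all tested genes were higher and 11.3% lower. BIRC3, an NF-kB-induced ubiquitin ligase that restrains caspase-8 activation, rose from 4.81 ± 0.454 to 9.55 ± 2.14 CPM (SD, n = 3 a group; log2 change 0.99 ± 0.15, edgeR BH-adjusted p = 1.07e-06). BIRC2, its close relative, fell by 0.29 on the log2 scale (edgeR BH-adjusted p = 0.00516), a call lost without si-GLMP replicate 1 (0.0571). XIAP, a direct caspase inhibitor, rose by 0.24 (edgeR BH-adjusted p = 0.0112), lost without NC replicate 1 (edgeR BH-adjusted p = 0.0682) or si-GLMP replicate 2 (0.107, at a log2 change of 0.15). NAIP rose by 1.46 ± 0.45 (edgeR BH-adjusted p = 0.0138) on only 3 to 26 counts per library, and its call was lost without NC replicate 2 (0.0978), si-GLMP replicate 2 (0.117) or si-GLMP replicate 3 (0.0685). NAIP also has near-identical copies in the genome, so its counts are uncertain. Without si-GLMP replicate 2, 2 of the list passed.

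In the death receptor pathway, whose caspase-8 activates BID, 5 of 10 tested genes rose and 1 fell, with a median of 0.18, where 12.0% of all tested genes were higher and 11.3% lower. TNFRSF10A, a receptor for the death ligand TRAIL, rose from 32.1 ± 1.58 to 44.0 ± 2.90 CPM (SD, n = 3 a group; log2 change 0.45 ± 0.08, edgeR BH-adjusted p = 2.98e-05). TNFRSF1A, the main TNF receptor, rose by 0.27 (edgeR BH-adjusted p = 0.00391). The adaptor genes TRADD (0.35, edgeR BH-adjusted p = 0.0144) and FADD (0.35, edgeR BH-adjusted p = 0.0180) and the second TRAIL receptor gene TNFRSF10B (0.21, edgeR BH-adjusted p = 0.0233) were also higher. The kinase gene RIPK1 had -0.24 (edgeR BH-adjusted p = 0.0329), and CASP8 itself had 0.16 ± 0.07 and did not pass (edgeR BH-adjusted p = 0.104). Only TNFRSF10A and TNFRSF1A kept their calls in all 15 alternatives. FADD, whose groups overlapped, lost its call without NC replicate 2 (log2 change 0.23; edgeR BH-adjusted p = 0.170), si-GLMP replicate 1 (0.133) or si-GLMP replicate 3 (0.0758) and after the GC and length correction (0.0508). TRADD lost it without NC replicate 2 (edgeR BH-adjusted p = 0.0923), si-GLMP replicate 1 (0.0551) or si-GLMP replicate 3 (0.0720), and TNFRSF10B without NC replicate 2 (0.154), si-GLMP replicate 1 (0.0985) or si-GLMP replicate 2 (0.0545). RIPK1 lost it without NC replicate 1 (edgeR BH-adjusted p = 0.160), NC replicate 3 (0.115) or si-GLMP replicate 3 (0.173) and with no filter on low counts (0.0791). The list held 3 calls without NC replicate 2, without si-GLMP replicate 1 or without si-GLMP replicate 3, and 5 without any other library. CASP8 passed after the GC and length correction (0.20; edgeR BH-adjusted p = 0.00452).

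The transcription factors known to switch on BH3-only genes moved in both directions, 4 of 12 higher and 3 lower, with a median of 0.07, where 12.0% of all tested genes were higher and 11.3% lower. FOXO3, which drives BIM and PUMA transcription, rose from 111.2 ± 1.69 to 129.3 ± 5.93 CPM (SD, n = 3 a group; log2 change 0.22 ± 0.07, edgeR BH-adjusted p = 0.0128), a call lost without NC replicate 1 (edgeR BH-adjusted p = 0.0766) or NC replicate 3 (0.0540), where the log2 fold change was 0.21 and 0.22. Its relative FOXO1 fell from 14.2 ± 0.986 to 8.93 ± 0.923 CPM (log2 change -0.66 ± 0.12, edgeR BH-adjusted p = 2.73e-05). Both read the motif marked in the BCL2L11 promoter above. TP73, another inducer of PUMA, had -0.35 (edgeR BH-adjusted p = 0.0198), lost without NC replicate 1 (0.0984), NC replicate 2 (0.0504) or si-GLMP replicate 2 (0.114). The stress factor genes ATF4 (0.28 ± 0.06, edgeR BH-adjusted p = 0.000547) and DDIT3 (0.65 ± 0.16, edgeR BH-adjusted p = 0.00196), both known inducers of BH3-only genes, rose. JUN, which with AP-1 partners can raise BIM, rose by 0.35 (edgeR BH-adjusted p = 6.96e-05). The part of any factor of this list in the changes of the members was not tested.

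Of 15 genes for factors that turn over or hold MCL1, BIM and NOXA, 2 were higher and 1 lower, with a median of 0.02. These 3 of 15 are close to the 23.3% of all tested genes called in either direction. The MCL1 ubiquitin ligase gene FBXW7 had 0.26 (edgeR BH-adjusted p = 0.0350), the mitochondrial ligase gene MARCHF5 had 0.21 (edgeR BH-adjusted p = 0.0403) and BTRC had -0.26 (edgeR BH-adjusted p = 0.0203). None of the 3 kept its call without NC replicate 2 (edgeR BH-adjusted p = 0.172, 0.234 and 0.113) or si-GLMP replicate 3 (0.142, 0.0871 and 0.0530). HUWE1, another MCL1 ligase gene, had -0.14 (edgeR BH-adjusted p = 0.113). The kinase gene MAPK3 (-0.13, edgeR BH-adjusted p = 0.302) did not pass, and transcript counts do not report kinase activity on BIM.

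**Figure D4:**
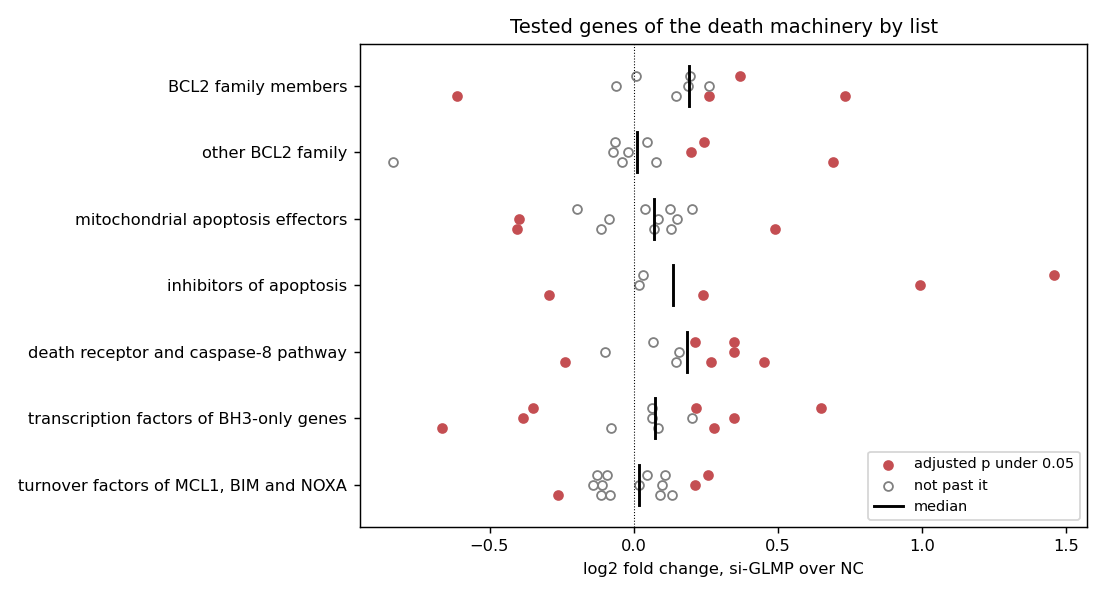
Log2 fold change, si-GLMP over NC (horizontal axis), of each tested gene of the BCL2 family members and of the 6 lists (rows), with the list median as a vertical line. Filled points passed an edgeR BH-adjusted p of 0.05, and the medians run from 0.01 for the other BCL2 family genes to 0.19 for the members.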

How the data were processed

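RNA-seq libraries of PC9OR cells, 3 NC and 3 si-GLMP (6 in all), were compared, with groups and replicate numbers taken from the titles. The authors deposited read counts per gene, whole numbers without normalization, with Ensembl identifiers and symbols. Per the submitters' processing notes, reads were handled with HISAT2 and GRCh38 (no versions). Not given in the sources used here are the counter, its annotation and its strand setting. All 6 columns matched a sample title, and 0 were left over.

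The members and gene lists were chosen with earlier results of these data known. The named genes were the 10 members, GLMP, up to 4 genes of each list by smallest adjusted p, any further gene of a list that passed, and FOXO3, DDIT3, ATF4, CASP8 and MAPK3. Some genes of this rule are counted in their lists but not reported here by name.

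The analysis used edgeR 4.0.16 (R 4.3.3): filterByExpr with a minimum count of 10 (15900 genes, at least 99.84% of each library's counts), TMM scaling and robust quasi-likelihood fits of si-GLMP against NC. Adjustment was by Benjamini-Hochberg over all tested genes, with a threshold of 0.05. SE is the log2 fold change over the square root of F, and n is 3 per group. The floor of 3 counts was 0.134 to 0.151 CPM. In simulated counts of 15900 genes, all given the same biological variation, 27 of 50 genes changed 1.3-fold were recovered. At 1.5-fold, 2-fold and 3-fold, 38, 40 and 49 of 50 were recovered, and 8 unchanged genes were called. Recovery at the uneven variation of the real genes and libraries was not simulated. Alternatives were RLE and upper-quartile scaling, other filters, DESeq2 1.42.0, limma-voom 3.58.1, the replicate number as a block, an absolute log2 fold change over 1 and each library left out. Removal of a GC and length trend, alone and with the block, was added after the data were seen, with values for 99.1% of tested genes. Exonic lengths and overlaps came from GENCODE release 29, which may differ from the authors' annotation, and promoters from RefSeq.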

Additional observations from a re-analysis of the deposited data

How the results depend on the processing

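PMAIP1, BID and GLMP kept their direction and call in all 15 alternatives of their fits, with GLMP between -2.40 and -2.15 on the log2 scale. BCL2L1, BBC3 and BAK1 passed in none of them. Members called higher were 3, with 2 to 4 when 1 library was left out and 5 on removal of the GC and length trend, alone or together with the replicate block. Members called lower were 1, and 0 in each fit without 1 library, with DESeq2, with no filter on low counts and after removal of the trend. BCL2 had log2 fold changes of -0.61 with no filter, -0.62 with DESeq2, -0.54 with the trend removed (also with the block, edgeR BH-adjusted p = 0.0733) and -0.69 to -0.56 without 1 library. MCL1 was stronger at 0.17 with the trend removed and 0.17 with trend and block, and 0.092 to 0.207 without 1 library. BCL2L11 was stronger at 0.25 with the trend removed, and also with the block. BAX ran from 0.22 to 0.31 without 1 library. NC replicate 2 was the lowest library in CPM for MCL1, BCL2L11, BBC3, BID, BAX and BAK1, but not for PMAIP1. Without it the log2 fold changes of those genes were 0.14, 0.12, 0.15, 0.34, 0.22 and 0.14, each under that of the main fit. PMAIP1 was at 0.74 without it. BMF changed sign, at -0.035 to 0.056 without 1 library, -0.00017 with the trend removed and -0.00034 with trend and block.

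Genes called over the whole table were 3712, and 2804 to 3448 without 1 library. An absolute log2 fold change over 1 left 304 of them, 0 members higher and 0 lower. Without 1 library, calls ran from 1 to 3 among the other BCL2 family genes, 0 to 4 among mitochondrial effectors, 2 to 4 among inhibitors of apoptosis, 3 to 5 in the death receptor pathway and 0 to 2 among turnover factors. Turnover factors had 1 call with no filter and 1 with DESeq2. The cause of these shifts was not tested.

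Samples share only replicate numbers: deviations of same-numbered libraries correlated at 0.04, 0.03 and 0.00. With the number as a block, 3972 genes were called, 3 members higher and 1 lower. At this depth BCL2, BIK, NAIP and BCL2L15 rest on few counts.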
